A study of Mus musculus with 40 samples.

Results

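The genes described here are the collagen genes of the mouse mammary gland, taken as every row of the deposited tables whose symbol is Col, a number, the letter a and a number, with at least 10 counts summed over 40 libraries. All 44 rows with such a symbol, of 47729 rows in all, met that minimum. They were ordered by the structure their proteins build: 11 fibrillar, 9 basement membrane, 9 network-forming, 9 FACIT (fibril-associated collagens with interrupted triple helices) and 4 transmembrane collagens, with 2 genes, Col26a1 and Col28a1, outside these classes. Of the 44 genes, 41 had enough counts for the tests. Col2a1, Col10a1 and Col22a1, with 159, 60 and 205 counts over all libraries, did not and have no test.

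Collagens are secreted or membrane proteins in which chains wind around each other into a triple helix. Fibrillar collagens are packed into the cables that give connective tissue its strength, type IV collagens form the sheet on which epithelium, fat cells and vessels rest, and type VI collagens form beaded filaments between fibrils and sheet. In the mammary gland the epithelial ducts grow through a pad of fat tissue inside a fibrous stroma, and fibroblasts are the main source of fibrillar collagen.

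The tissue was the part of a #4 inguinal mammary gland between the teat and the site of the excised lymph node, from Balb/cJ mice that all had their ovaries removed at 21 days of age and recovered for 7 days. Estrogen at 200 nM in the drinking water, with the control diet, was given to 5 mice sampled at 60 h and 5 at 84 h. The control diet with conjugated linoleic acid (CLA, a polyunsaturated fatty acid with several isomers) as 2.7% fat was fed to 5 mice sampled at 108 h and 5 at 132 h. Control mice, fed the same AIN 93G based diet without either agent, were sampled at 60, 84, 108 and 132 h with 5 mice at each time. Neither the isomers of CLA nor the age at sampling beyond these times is given in the labels. The agents share no time point, so each is set against its own controls. The tissue holds fat, stroma, vessels and ducts together, and fewer cells of a type cannot be told apart from less RNA per cell.

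Strand-specific poly(A) RNA sequencing gave 18183713 to 40026800 counts per library. Genes of skin and hair set 9 libraries apart, whose mean over that list was 2.11 to 5.89 log2 CPM, against −3.62 to 0.61 in the other 31. These were 1 estrogen library at 60 h, 3 estrogen libraries at 84 h, 2 controls at 108 h and 3 controls at 132 h, and no CLA library was among them. The mean over 5 skeletal muscle genes was at most 2.53 log2 CPM in CLA-fed mice, against 7.41 in 1 control at 84 h and 6.65 in 1 control at 132 h. All 10 estrogen mice belong to a run of animal numbers that holds no control, so that run and estrogen cannot be told apart. No library was a copy of another (lowest chi-square per gene 9.41 over 780 pairs).

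Levels below are CPM, counts divided by the library's total in units of 1e6 counts and scaled by TMM factors over all 40 libraries, or RPKM, reads per kilobase scaled to library size as the authors deposited them, where genes are compared with each other. Coordinates are those of GENCODE M21 on GRCm38. The 5 values of a group are given in the order of its replicates, and n is 5 in every group. A gene is said to rise or fall where edgeR's quasi-likelihood test passed an adjusted p of 0.05 over all genes tested.

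Collagen RNA was abundant and was dominated by few genes. Col3a1 had a mean of 819 RPKM over the 40 libraries and held 27.3% of the RPKM of all 44 genes, followed by Col1a1 (684 RPKM, 22.8%), Col4a1 (283 RPKM, 9.42%), Col1a2 (268 RPKM, 8.92%) and Col4a2 (192 RPKM, 6.38%). At the low end Col22a1 averaged 0.00915 RPKM and was listed at 0 in 14 libraries, and Col10a1 averaged 0.0155 RPKM and was listed at 0 in 9. The 44 genes together took 3.52 ± 0.333% of all counts in CLA-fed mice at 108 h, against 2.95 ± 0.218% in controls (SD). At 132 h the share was 4.06 ± 0.123% with CLA and 2.57 ± 0.119% in controls. With estrogen it was 2.86 ± 0.332% against 2.95 ± 0.260% at 60 h and 3.0 ± 0.602% against 3.2 ± 0.362% at 84 h, differences within the spread between mice.

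With CLA, the type V genes, Col27a1, Col6a1 to Col6a3, Col12a1 and Col18a1 rose at both times. Col4a1 to Col4a3, Col13a1, Col23a1 and Col28a1 fell at both. Several of these calls were lost in other fits, as given below. With estrogen the type IX genes and Col7a1 had the largest rises among those called. With CLA, 10 collagens rose and 8 fell of 41 tested at 108 h, where 47.9% of all genes tested were called, 24.9% higher and 23.0% lower. At 132 h 14 rose and 9 fell, with 56.0% of all genes called, 27.0% higher and 29.0% lower. With estrogen 7 rose and 1 fell at 60 h (6.49% of all genes called, 4.07% higher and 2.42% lower), while 84 h gave 7 rises and 3 falls (5.42%, 3.45% and 1.97%). With CLA the share of collagens called was near that of all genes. Without the 9 libraries high in skin genes, 3 collagens were called with estrogen at 84 h, all higher. Of all genes, 303 were called in that fit, against 931 in the main fit. It leaves out 3 of the 5 estrogen libraries at 84 h and 3 of the 5 controls at 132 h. For a call lost there, skin content and the smaller number of libraries cannot be told apart. The median log2 fold change of the 41 collagens was 0.14 at 108 h and 0.12 at 132 h with CLA, against −0.01 and −0.03 over all genes, and 0.06 and 0.05 with estrogen, against −0.00 and −0.01. The 2 groups did not overlap in CPM for 6 collagens with CLA at 108 h (31.8% of all genes), 18 at 132 h (36.9%), 6 with estrogen at 60 h (6.44%) and 9 at 84 h (7.98%). Of the 41 collagens, 37 were called in at least 1 of the 4 comparisons, 15 with CLA at both times in the same direction and 4 with estrogen at both times. The shares of all genes for these joint counts were not computed, so the counts do not set collagens apart from other genes.

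**Figure D1:**
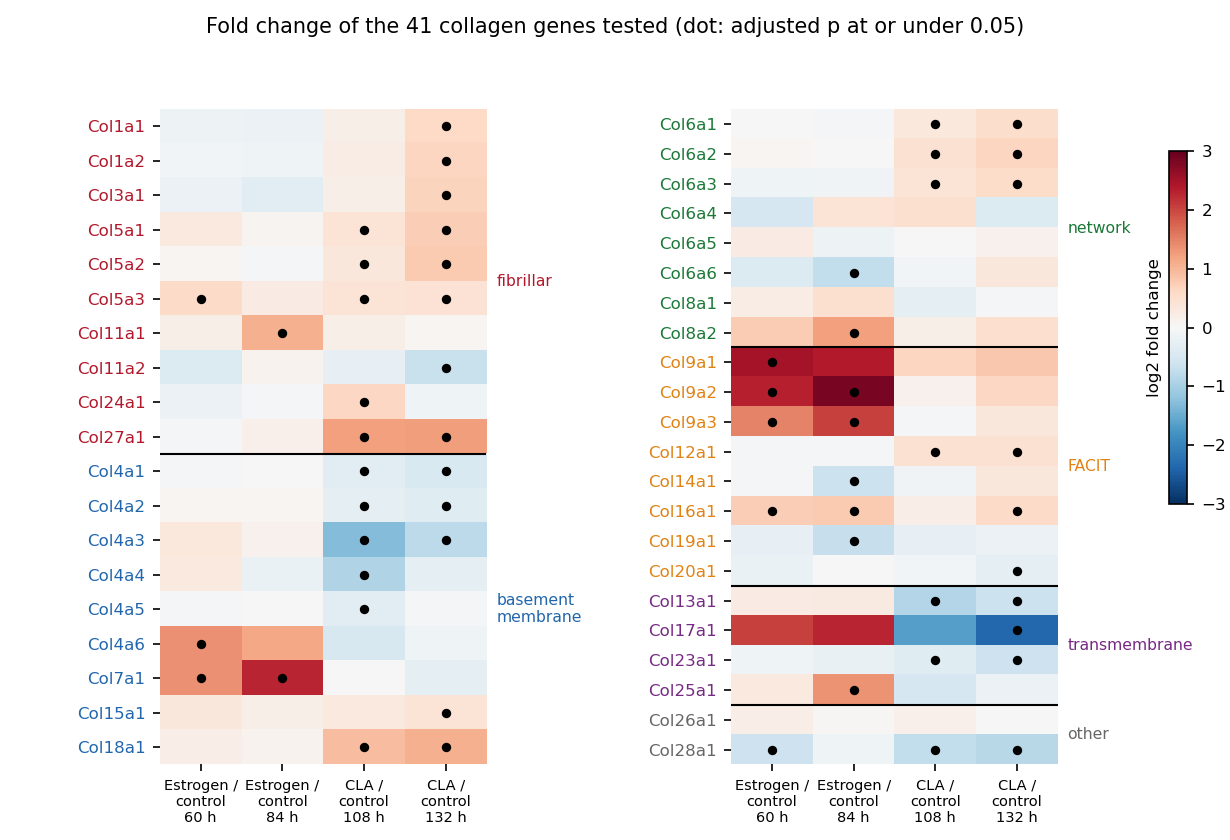
Log2 fold change of the 41 tested collagen genes (rows, grouped and coloured by class) in the 4 comparisons (columns, estrogen or CLA over control), with red for higher, blue for lower and a black dot where the adjusted p was at or under 0.05. Type I, III, V and Col27a1 genes and Col6a1 to Col6a3 are red in both CLA columns and Col4a1 to Col4a5 are blue there. The darkest red cells are in the estrogen columns, at the type IX genes, Col7a1 and Col17a1, the last with no dot there.

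The split with CLA depends on the scaling. Without scaling factors, an alternative chosen after seeing the data, the median of all genes tested was 0.11 at 132 h and 0.07 at 108 h, and 16 collagens rose and 6 fell at 132 h, against 13 higher and 4 lower at 108 h. On log2(RPKM + 0.1), tested with limma, 16 rose and 3 fell at 132 h, against 11 higher and 5 lower at 108 h, and with upper-quartile scaling 8 rose and 9 fell at 108 h. With estrogen at 84 h, limma on RPKM gave 5 higher and 1 lower. Of all genes, TMM called 9613 with CLA at 132 h and 8261 at 108 h. Without scaling factors the calls were 9736 and 8155, and on log2(RPKM + 0.1) they were 9377 and 7830. Upper-quartile scaling called 8499 at 108 h. With estrogen at 84 h limma on log2(RPKM + 0.1) called 584 of all genes, against 931 with TMM. The values below are those with TMM, in which the median of all genes was within 0.03 of 0.

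Of the 10 fibrillar collagens tested, 5 rose with CLA at 108 h and none fell, while 132 h gave 7 rises and 1 fall. Type I, a trimer of Col1a1 and Col1a2 chains, and type III, made of Col3a1 alone, are the bulk of tissue fibrils. Col1a1 (chr11:94936224-94953042, plus strand) had 8521, 7499, 6832, 7714 and 7665 CPM in the CLA libraries at 132 h, against 5154, 4823, 4709, 4926 and 5234 CPM in controls. Col1a2 (chr6:4504814-4541544, plus strand) had 5957, 5547, 5099.9, 5834 and 5438 CPM with CLA and 3567, 3343, 3325, 3549.9 and 3729.9 CPM in controls. Col3a1 (chr1:45311538-45349706, plus strand) had 14135, 13919.5, 12651, 14014 and 13364 CPM with CLA and 8388, 8102, 7691, 8823 and 9129 CPM in controls. For each of the 3 genes every CLA library lay above every control. The log2 fold changes were 0.60 ± 0.15 (SE, edgeR adjusted p = 0.00272), 0.65 ± 0.14 (SE, edgeR adjusted p = 0.000598) and 0.67 ± 0.13 (SE, edgeR adjusted p = 0.00026). At 108 h the same genes were not called: Col1a1 averaged 6177 ± 783 CPM with CLA and 5467 ± 271 CPM in controls, Col1a2 4546 ± 488 and 3917 ± 233 CPM, and Col3a1 11277 ± 1085 and 9982 ± 915 CPM. Without scaling factors Col1a2 and Col3a1 were called higher at 108 h, and so was Col1a2 with limma on log2(RPKM + 0.1). The difference between the CLA effects at 132 h and 108 h did not pass for any of the 41 collagens or of all genes (0% called), with 9 collagens and 2216 genes at an unadjusted p under 0.05.

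The ratio of the major fibrillar chains moved little. By RPKM there were 0.393 Col1a2 per Col1a1 with CLA and 0.380 in controls at 132 h, and 1.2 Col3a1 per Col1a1 with CLA and 1.14 in controls. The exact 2-sided permutation test (5 against 5, smallest possible p 0.00794) gave p = 0.0873 and 0.119 for these ratios, adjusted p = 0.212 and 0.231 over the 20 ratio tests made.

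Col27a1, a fibrillar collagen best known from cartilage, had the largest fold change among the fibrillar genes with CLA. Col27a1 (chr4:63214004-63334991, plus strand) had 122, 134, 122, 91.9 and 77.7 CPM with CLA at 108 h, against 35.9, 45.1, 47.1, 51.6 and 52.6 CPM in controls. Col27a1 at 132 h had 109.7, 118, 123, 98.4 and 121 CPM with CLA and 39.2, 38.2, 50.3, 58.7 and 48.4 CPM in controls. No CLA library overlapped the controls at either time, and the estrogen libraries and the 60 h and 84 h controls lay at 45.4 to 74 CPM. The log2 fold changes were 1.24 ± 0.13 (SE, edgeR adjusted p = 2.92e-07) and 1.26 ± 0.12 (SE, edgeR adjusted p = 5.23e-08). Cartilage markers (5 genes, of which 2 were tested at 108 h and 3 at 132 h) gave no rise with CLA, and 1 of them fell at 132 h.

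The type V chains, which join type I in mixed fibrils and set their width, rose together with CLA. Col5a1 changed by 0.41 ± 0.11 at 108 h and 0.74 ± 0.10 at 132 h on the log2 scale (SE), Col5a2 by 0.34 ± 0.09 and 0.79 ± 0.09, and Col5a3 by 0.40 ± 0.16 and 0.44 ± 0.14. Adjusted p was 0.00451 and 4.52e-06 for Col5a1, 0.00576 and 4.67e-07 for Col5a2, and 0.0487 and 0.0131 for Col5a3. The Col5a3 calls were lost without the 9 libraries high in skin genes, at 0.17 (adjusted p = 0.413) and 0.37 (adjusted p = 0.146). At 108 h the Col5a3 call was also lost without CLA replicate 2 or 3 or control replicate 1, 2 or 5 (highest adjusted p 0.165), and with the animal-number run as a term (adjusted p = 0.0642). Of the minor fibrillar chains, Col24a1 rose at 108 h (0.62 ± 0.18, adjusted p = 0.0068) and Col11a2 fell at 132 h (−0.66 ± 0.24, adjusted p = 0.0287). The Col24a1 call was lost with limma on log2(RPKM + 0.1) (0.33, adjusted p = 0.0712) and on these values centred on all genes (0.21, adjusted p = 0.23). Col24a1 had 44 to 57 counts per library with CLA at 108 h and 27 to 41 in controls. The Col11a2 call was lost without the 9 libraries, at −0.52 (adjusted p = 0.187), and without CLA replicate 2, 3 or 4 or control replicate 2 or 4 (highest adjusted p 0.0807), and with the animal-number run as a term, at −0.63 (adjusted p = 0.0538).

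With estrogen 1 fibrillar collagen rose at each time. Col5a3 rose at 60 h by 0.56 ± 0.16 (SE, edgeR adjusted p = 0.0469), a call lost without any 1 library except estrogen replicate 3 (highest adjusted p 0.11). Col11a1 (chr3:114030540-114220718, plus strand), a chain of thin fibrils, had 5.39, 6.61, 7.02, 6.97 and 4.11 CPM with estrogen at 84 h, against 2.5, 2.06, 3.29, 3.15 and 3.26 CPM in controls. The groups did not overlap, with a log2 fold change of 1.06 ± 0.26 (SE, edgeR adjusted p = 0.0229). Without the 9 libraries it was 1.10 (adjusted p = 0.171), and the call was lost without estrogen replicate 3 or 4 or control replicate 1 or 2 (highest adjusted p 0.067). The type I and III genes were not called with estrogen: Col1a1 averaged 5604 ± 1548 CPM with estrogen, against 6299 ± 1095 CPM in control libraries at 84 h, Col1a2 4133 ± 1045 and 4509.5 ± 654 CPM, and Col3a1 9295 ± 2138 and 11404 ± 1292 CPM. The RPKM ratio of Col5a2 to Col5a1 was 0.588 with estrogen and 0.681 in controls at 60 h, with no overlap (exact permutation p = 0.00794, the smallest possible, adjusted p = 0.0529).

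**Figure D2:**
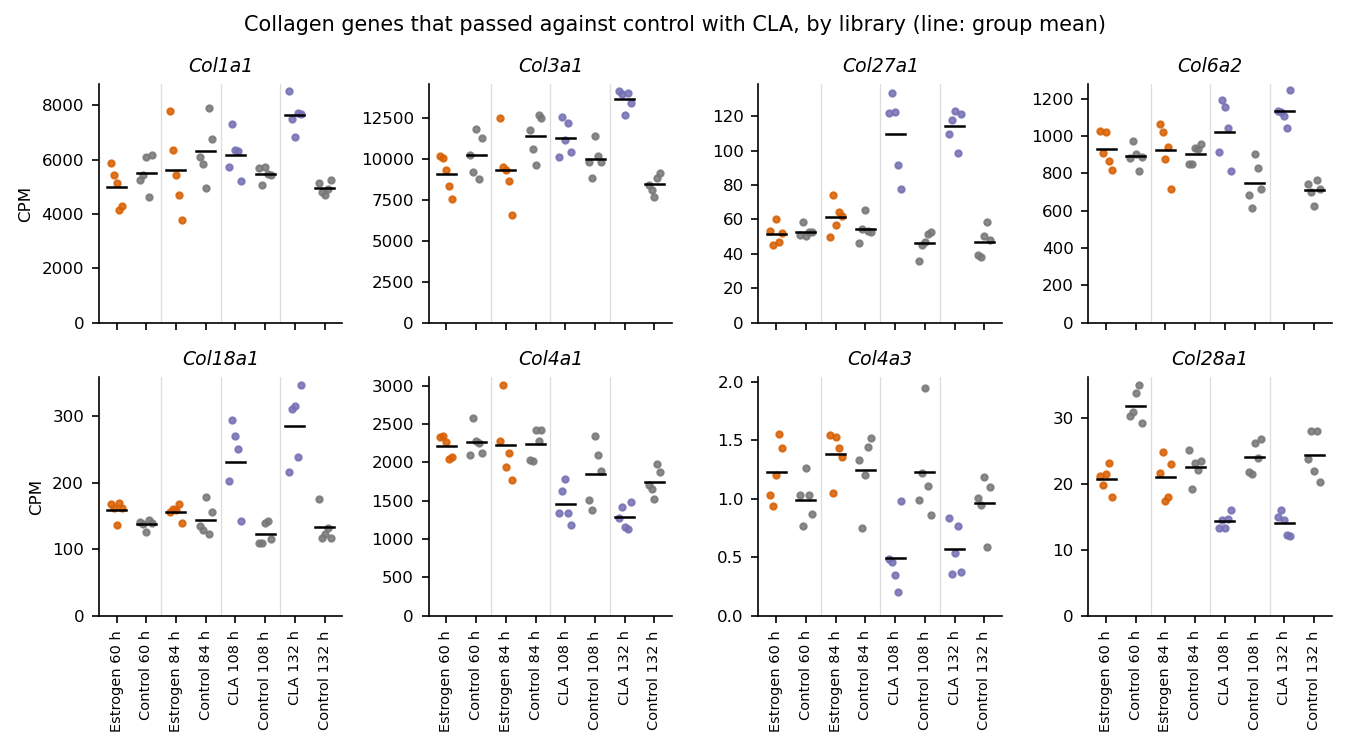
CPM of 8 collagen genes that passed in a CLA comparison, 1 point per library and a line at the mean of each group of 5, on linear axes that start at 0. Orange points are estrogen, purple CLA and grey controls. Col27a1 and Col18a1 are higher in the CLA groups than in most other libraries, Col1a1 and Col3a1 are highest with CLA at 132 h, and Col4a1, Col4a3 and Col28a1 are lowest with CLA.

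Of the 9 basement membrane collagens, CLA gave 1 rise and 5 falls at 108 h, against 2 rises and 3 falls at 132 h. Type IV collagen exists as a major trimer of Col4a1 and Col4a2 chains and as minor trimers of the Col4a3 to Col4a6 chains, and the genes lie head to head in pairs. Col4a1 (chr8:11198423-11312826, minus strand) had 1343, 1632, 1786, 1339 and 1189 CPM with CLA at 108 h, against 1513, 1377, 2343, 2092 and 1892 CPM in controls. The later libraries of Col4a1, at 132 h, had 1280.1, 1421, 1157, 1128 and 1482 CPM with CLA and 1704, 1659, 1528, 1975 and 1880.5 CPM in controls. The groups overlapped at 108 h and not at 132 h, with log2 fold changes of −0.33 ± 0.13 (SE, edgeR adjusted p = 0.0371) and −0.46 ± 0.12 (SE, edgeR adjusted p = 0.00393). Col4a2 (chr8:11312805-11449287, plus strand), whose annotated start overlaps that of Col4a1 by 22 bases on the other strand, had 1205, 1456, 1549, 1179 and 1138 CPM with CLA and 1399, 1224, 1927, 1761 and 1652 CPM in controls at 108 h. At 132 h it had 1218, 1224, 1066, 1078 and 1350.5 CPM with CLA and 1432, 1417, 1374, 1749 and 1588 CPM in controls. Again the groups parted at 132 h, and Col4a2 fell, at −0.28 ± 0.11 (SE, edgeR adjusted p = 0.0381) and −0.37 ± 0.11 (SE, edgeR adjusted p = 0.00759) as log2 fold changes.

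Without the 9 libraries high in skin genes Col4a1 had −0.53 (adjusted p = 0.00156) at 108 h and −0.60 (adjusted p = 0.00172) at 132 h, and Col4a2 −0.44 (adjusted p = 0.00199) and −0.51 (adjusted p = 0.00342). On log2(RPKM + 0.1) Col4a1 had log2 fold changes of −0.21 at 108 h and −0.22 at 132 h and Col4a2 −0.21 and −0.24, none of them called. At 108 h both calls were also lost without CLA replicate 1, 4 or 5 or control replicate 3, 4 or 5 (highest adjusted p 0.134 for Col4a1 and 0.13 for Col4a2), and in a fit with the animal-number run added (adjusted p = 0.17 and 0.155). The RPKM ratio of Col4a2 to Col4a1 was 0.672 with CLA and 0.674 in controls at 108 h, and 0.674 and 0.684 at 132 h (exact permutation p = 0.683 and 0.238).

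The minor type IV chains were rare, with Col4a3 at 0.0736 RPKM and Col4a4 at 0.342 RPKM over all libraries. Col4a3 (chr1:82586921-82722059, plus strand) had 0.485, 0.462, 0.348, 0.202 and 0.985 CPM with CLA at 108 h, against 0.988, 1.22, 1.95, 1.11 and 0.863 CPM in controls. Col4a3 at 132 h had 0.839, 0.352, 0.532, 0.764 and 0.374 CPM with CLA and 1.01, 0.945, 1.19, 0.584 and 1.1 CPM in controls. The CLA libraries were mostly the lower ones, with 1 CLA library inside the control range at 108 h. Col4a3 fell, at −1.30 ± 0.31 (SE, edgeR adjusted p = 0.002) and −0.79 ± 0.26 (SE, edgeR adjusted p = 0.0145), and the 132 h value without the 9 libraries high in skin genes was −0.61 (adjusted p = 0.235). The 132 h call was also lost with the animal-number run as a term, at −0.81 (adjusted p = 0.0659), and on log2(RPKM + 0.1) the 108 h value was −0.50 (adjusted p = 0.00731). Col4a4, its neighbour on the other strand, fell at 108 h, at −0.91 ± 0.20 (SE, edgeR adjusted p = 0.000752) and Col4a5 at −0.31 ± 0.10 (SE, edgeR adjusted p = 0.0122), and neither was called at 132 h (−0.28 ± 0.18 and −0.04 ± 0.12). At 108 h the Col4a5 call was lost without scaling factors and on RPKM.

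The bases between the start sites of Col4a4 and Col4a3 are shown because one short stretch lies before both genes, which were called lower together at 108 h. The 250 bases before the starts of Col3a1 and Col5a1, of Col7a1 and of Col28a1 are shown for comparison, as genes that rose with CLA, rose with estrogen and fell with CLA. RefSeq gave a window for 35 of the 44 genes (GRCm38.p6), and the sequences are printed 5′ to 3′ with capitals at a match on either strand to one of 4 motifs, which do not overlap here. The motifs searched were the CCAAT box with the letters CCAAT, the TATA box with the letters TATAAA, the GC box with the letters GGGCGG and the AP-1 motif with the letters TGANTCA.
Col4a4 to Col4a3 (chr1:82586850-82586920, plus strand, read toward Col4a3): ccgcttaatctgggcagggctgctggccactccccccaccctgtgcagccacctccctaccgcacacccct
Col3a1 (chr1:45311288-45311537, plus strand): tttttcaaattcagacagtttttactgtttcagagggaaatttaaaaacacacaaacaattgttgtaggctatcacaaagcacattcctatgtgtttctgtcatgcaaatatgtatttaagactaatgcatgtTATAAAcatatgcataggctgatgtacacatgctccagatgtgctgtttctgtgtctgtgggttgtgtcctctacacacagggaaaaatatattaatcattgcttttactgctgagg
Col5a1 (chr2:27886175-27886424, plus strand): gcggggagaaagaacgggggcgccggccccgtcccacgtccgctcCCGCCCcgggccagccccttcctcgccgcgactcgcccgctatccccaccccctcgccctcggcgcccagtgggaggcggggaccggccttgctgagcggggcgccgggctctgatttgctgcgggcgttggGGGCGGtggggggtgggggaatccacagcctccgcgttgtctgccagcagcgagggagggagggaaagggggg
Col7a1 (chr9:108953336-108953585, plus strand): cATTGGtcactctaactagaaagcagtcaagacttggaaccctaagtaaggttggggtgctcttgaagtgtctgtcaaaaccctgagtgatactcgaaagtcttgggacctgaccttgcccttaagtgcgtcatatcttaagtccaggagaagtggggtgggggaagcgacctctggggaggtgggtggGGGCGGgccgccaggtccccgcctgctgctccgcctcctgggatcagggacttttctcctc
Col28a1 (chr6:8192618-8192867, minus strand): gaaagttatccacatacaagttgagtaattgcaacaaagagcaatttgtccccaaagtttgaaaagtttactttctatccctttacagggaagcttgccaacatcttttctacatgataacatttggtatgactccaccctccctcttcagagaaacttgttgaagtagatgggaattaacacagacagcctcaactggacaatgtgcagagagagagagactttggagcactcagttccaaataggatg

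The 71 bases between Col4a4 and Col4a3 held none of the 4 motifs and were 69.0% G and C. The window of Col5a1 held GGGCGG at 2 places and was 76.4% G and C, and that of Col3a1 held TATAAA at 1 place and was 35.2% G and C, 2 genes that rose with CLA. The Col7a1 window held CCAAT and GGGCGG at 1 place each, and the Col28a1 window held none of the 4. Among all 32851 RefSeq windows of 250 bases, 33.8% held CCAAT, 12.4% TATAAA, 32.7% GGGCGG and 6.75% TGANTCA. Of the 38 windows of collagen genes, 13 held CCAAT (34.2%), 5 TATAAA (13.2%), 22 GGGCGG (57.9%) and 1 TGANTCA (2.63%).

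Col18a1, a basement membrane collagen with heparan sulfate chains whose end piece is endostatin, went against the type IV genes. Col18a1 (chr10:77052178-77166548, minus strand) had 203, 294, 269.6, 250.1 and 142 CPM with CLA at 108 h, against 109, 108, 139.7, 141 and 115 CPM in controls. The later libraries of Col18a1, at 132 h, had 215, 309.8, 314, 238 and 346 CPM with CLA and 175, 117, 122, 131 and 117 CPM in controls. The groups did not overlap at either time, and the log2 fold changes were 0.92 ± 0.14 (SE, edgeR adjusted p = 2.58e-05) and 1.08 ± 0.14 (SE, edgeR adjusted p = 1.83e-06). Its relative Col15a1 (chr4:47208161-47313167, plus strand), which links basement membranes to the fibrils outside, had 686, 868, 863, 757 and 946 CPM with CLA at 132 h and 601, 446, 675, 662 and 685 CPM in controls. The groups lay side by side without overlap, with a log2 fold change of 0.40 ± 0.14 (SE, edgeR adjusted p = 0.0227). That call was lost without the 9 libraries, at 0.27 (adjusted p = 0.198), and without CLA replicate 5 or control replicate 2 (adjusted p = 0.0611 and 0.07).

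With estrogen the type IV genes Col4a1 to Col4a5 were not called, and Col7a1 and Col4a6, both found under ductal epithelium and skin, rose. Col7a1 (chr9:108953586-108984875, plus strand) encodes the anchoring fibrils that tie epithelium to the stroma below. It had 23.1, 16.4, 28.2, 15.4 and 20.4 CPM with estrogen at 60 h, against 10.5, 7.55, 7.19, 8.2 and 6.16 CPM in controls. At 84 h it had 32.3, 36.6, 54.4, 47.6 and 26.5 CPM with estrogen, against 5.06, 5.48, 7.97, 13.1 and 8.53 CPM in control libraries. Every estrogen library was above every control at its time, with log2 fold changes of 1.38 ± 0.27 (SE, edgeR adjusted p = 0.0116) and 2.28 ± 0.35 (SE, edgeR adjusted p = 0.000788), and both calls were kept without the 9 libraries, at 1.38 (adjusted p = 0.0283) and 2.30 (adjusted p = 0.00698). Col4a6 (chrX:141165403-141474076, minus strand) had 3.31, 2.18, 3.49, 3.02 and 3.69 CPM with estrogen at 60 h and 2.43, 0.798, 0.470, 1.2 and 1.13 CPM in controls. The groups overlapped by 1 control, and the log2 fold change was 1.37 ± 0.40 (SE, edgeR adjusted p = 0.0461). It was 1.31 (adjusted p = 0.0935) without the 9 libraries, and the call was lost without any 1 library except control replicate 1 (highest adjusted p 0.103). The ratio of its CPM to its RPKM corresponds to a length of 61.4 kilobases, against 7.97 kilobases of annotated exons, and what the 2 tables counted for it is not given in the sources used here.

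Of the 8 network-forming collagens tested, 3 rose with CLA at each time and none fell. They were the chains of the common type VI trimer, a filament that surrounds fat cells and links fibrils to basement membranes. Col6a1 (chr10:76708792-76726168, minus strand) had 908, 1167, 1125, 1027 and 807 CPM with CLA at 108 h, against 812, 676, 913, 893 and 754 CPM in controls. Col6a1 at 132 h had 1090.1, 1071, 1061, 1049.7 and 1173 CPM with CLA and 759, 770.2, 692, 792 and 725 CPM in controls. The groups overlapped at 108 h and parted at 132 h, as they did for both other chains. Col6a2 (chr10:76595762-76623630, minus strand) had 917, 1193, 1156, 1041 and 815 CPM with CLA and 686, 615, 904, 828 and 714 CPM in controls at 108 h. At 132 h Col6a2 had 1131, 1129, 1109, 1044 and 1244 CPM with CLA and 744, 701, 627, 766 and 716 CPM in controls. It stands beside Col6a1 on the same strand, while Col6a3 (chr1:90765923-90843971, minus strand), the longest chain, is on another chromosome. Col6a3 had 899, 1197, 1205, 1033 and 821 CPM with CLA and 675, 614, 958, 869 and 760.4 CPM in controls at 108 h. At 132 h Col6a3 had 1005, 1113, 1055, 1032 and 1118 CPM with CLA and 736, 673, 639, 775 and 762.1 CPM in controls. The log2 fold changes at 108 h were 0.32 ± 0.09 (SE, edgeR adjusted p = 0.00872), 0.46 ± 0.11 (SE, edgeR adjusted p = 0.00186) and 0.42 ± 0.11 (SE, edgeR adjusted p = 0.0056). At 132 h they were 0.52 ± 0.08 (SE, edgeR adjusted p = 3.00e-05), 0.65 ± 0.09 (SE, edgeR adjusted p = 7.01e-06) and 0.54 ± 0.10 (SE, edgeR adjusted p = 8.17e-05). Without the 9 libraries the 108 h values were 0.24 (adjusted p = 0.0698) for Col6a1 and 0.26 (adjusted p = 0.0725) for Col6a3, no longer called. With the animal-number run as a term the 108 h call of Col6a1 was lost as well, at 0.32 (adjusted p = 0.0525).

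Within the type VI trimer the balance of chains did not pass its test, whose smallest possible p is set by 5 against 5 libraries. The RPKM ratio of Col6a2 to Col6a1 was 0.533 ± 0.00506 with CLA and 0.484 ± 0.0286 in controls at 108 h, and 0.545 ± 0.0139 with CLA and 0.499 ± 0.0200 in controls at 132 h. The groups did not overlap at either time (exact 2-sided permutation p = 0.00794, the smallest possible). Over the 20 ratio tests the adjusted p was 0.0529 for both, and none of the 20 passed. Even groups that do not overlap can pass this adjustment only if enough of the 20 ratios share the smallest p. The test therefore cannot decide whether the balance of chains changed.

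The other network genes were not called with CLA. With estrogen at 84 h Col8a2 rose and Col6a6 fell. Col8a2 (chr4:126286793-126314330, plus strand), a short chain of the layer under endothelium, had 1.89, 1.83, 2.64, 2.24 and 1.26 CPM with estrogen, against 0.551, 0.515, 1.08, 1.06 and 0.885 CPM in control libraries. The groups did not overlap, and the log2 fold change was 1.24 ± 0.35 (SE, edgeR adjusted p = 0.0432). It was 1.31 (adjusted p = 0.0665) without the 9 libraries, and the call was lost without estrogen replicate 1, 2, 3 or 4 or control replicate 1, 2 or 5 (highest adjusted p 0.12). Col6a6, a type VI chain that can take the place of Col6a3, fell, at −0.75 ± 0.15 (SE, edgeR adjusted p = 0.00601), and had −0.49 (adjusted p = 0.244) without the 9 libraries. Col6a4, Col6a5 and Col8a1 were called in none of the 4 comparisons, at mean levels of 0.0845, 0.292 and 3.45 RPKM.

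FACIT collagens sit on the surface of fibrils. Of the 8 tested, 4 rose with estrogen at 60 h, while 84 h gave 3 rises and 2 falls. The 3 type IX chains, which together form a trimer best known from cartilage, and Col16a1 made up these rises. Col9a1 (chr1:24177610-24252684, plus strand) had 2.07, 1.71, 2.0, 1.58 and 2.63 CPM with estrogen at 60 h, against 0.456, 0.399, 0, 0.412 and 0.484 CPM in controls, where 1 library had no count. Col9a2 (chr4:121039385-121055322, plus strand) had 6.25, 2.68, 5.81, 3.73 and 3.31 CPM with estrogen, against 1.82, 0.632, 0.294, 0.686 and 0.839 CPM in control libraries at 60 h. Every estrogen library was above every control for all 3 chains at 60 h. At 84 h Col9a2 had 7.72, 7.95, 10.8, 9.59 and 5.7 CPM with estrogen, against 0.551, 0.515, 0.922, 2.54 and 1.17 CPM in control libraries. Col9a3 (chr2:180597790-180622189, plus strand) had 6.85, 3.82, 7.95, 3.97 and 4.54 CPM with estrogen, against 3.04, 1.86, 1.53, 1.68 and 1.45 CPM in control libraries at 60 h. At 84 h Col9a3 had 8.57, 6.97, 12.5, 11.8 and 7.03 CPM with estrogen, against 1.04, 1.36, 1.8, 4.34 and 2.58 CPM in control libraries. At 84 h, too, the groups of Col9a2 and Col9a3 did not overlap.

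The log2 fold changes at 60 h were 2.50 ± 0.69 (SE, edgeR adjusted p = 0.0394) for Col9a1, 2.34 ± 0.54 (SE, edgeR adjusted p = 0.0206) for Col9a2 and 1.5 ± 0.32 (SE, edgeR adjusted p = 0.0141) for Col9a3. At 84 h they were 2.84 ± 0.53 (SE, edgeR adjusted p = 0.00384) for Col9a2 and 2.05 ± 0.38 (SE, edgeR adjusted p = 0.00305) for Col9a3, while Col9a1, at 3.28 ± 0.766 CPM with estrogen, against 0.604 ± 0.738 CPM in control libraries, missed the threshold (2.38 ± 0.71, adjusted p = 0.059). The Col9a1 call at 60 h was lost without any 1 library except estrogen replicate 4 (highest adjusted p 0.082), and that of Col9a2 without estrogen replicate 1 or control replicate 3 or 4 (highest adjusted p 0.0588). At 84 h Col9a2 had 2.89 (adjusted p = 0.0597) without the 9 libraries. Col9a1 was called at 84 h with DESeq2, with limma on RPKM, with a stricter count filter and without control replicate 4. The levels stayed low, with at most 12.5 CPM for Col9a3 and 10.8 CPM for Col9a2. Of the 5 cartilage markers, 2 had enough counts at 60 h, of which 1 rose, and none of the 3 tested at 84 h did. Of all genes, 4.07% and 3.45% rose with estrogen at these times.

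Col16a1 (chr4:130047840-130099283, plus strand), a FACIT of several stromal tissues, rose in both arms. It had 131, 94.6, 118, 90.7 and 96.8 CPM with estrogen at 60 h, against 76.2, 48.6, 61.8, 59.9 and 70.7 CPM in controls. At 84 h it had 148, 128, 151, 139 and 90.6 CPM with estrogen, against 60.7, 66.6, 69.4, 96.6 and 85 CPM in control libraries. The groups parted at 60 h and overlapped by 1 library at 84 h. With CLA at 132 h it had 109.6, 124, 119, 132 and 120.2 CPM, against 94.7, 87.4, 80.6, 59.1 and 76.9 CPM in controls, without overlap. The log2 fold changes were 0.74 ± 0.12 (SE, edgeR adjusted p = 0.00435), 0.78 ± 0.14 (SE, edgeR adjusted p = 0.00288) and 0.57 ± 0.14 (SE, edgeR adjusted p = 0.0021), and at 108 h with CLA Col16a1 was not called (0.19 ± 0.12).

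Among the other FACIT genes with CLA, Col12a1, which is found where tissue bears load, rose by 0.46 ± 0.17 (SE, edgeR adjusted p = 0.0355) and 0.46 ± 0.17 (SE, edgeR adjusted p = 0.0297). The Col12a1 calls were lost without CLA replicate 1, 2 or 3 at either time, without control replicate 2, 4 or 5 at 108 h and without control replicate 2, 3 or 5 at 132 h (highest adjusted p 0.137 and 0.0835). At 108 h Col12a1 had 0.32 (adjusted p = 0.0823) with the animal-number run as a term. Col20a1 (chr2:180986535-181018363, plus strand) had 18.5, 19, 17, 19.3 and 18.9 CPM with CLA at 132 h and 19.9, 25.5, 21.8, 26.4 and 19 CPM in controls. The ranges overlapped, and Col20a1 fell, at −0.30 ± 0.11 (SE, edgeR adjusted p = 0.019). The value was −0.31 (adjusted p = 0.104) without the 9 libraries, and the call was also lost without CLA replicate 3 or control replicate 2 or 4 (highest adjusted p 0.0606). Without scaling factors it was −0.17 (edgeR adjusted p = 0.219), and on log2(RPKM + 0.1) it was −0.09 (limma adjusted p = 0.66). With estrogen at 84 h Col14a1 and Col19a1 fell. Col14a1 (chr15:55307750-55520803, plus strand), a regulator of fibril width, had 388, 326, 329, 341 and 219.8 CPM with estrogen, against 521, 533, 403, 469 and 549.8 CPM in control libraries. No library overlapped, with a log2 fold change of −0.64 ± 0.15 (SE, edgeR adjusted p = 0.0164) and of −0.45 (adjusted p = 0.332) without the 9 libraries. Col19a1 changed by −0.68 ± 0.19 (SE, edgeR adjusted p = 0.0424), a call lost without any 1 library except control replicate 3 (highest adjusted p 0.106), and its ratio of CPM to RPKM corresponds to 36.1 kilobases, against 6.89 kilobases of annotated exons.

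**Figure D3:**
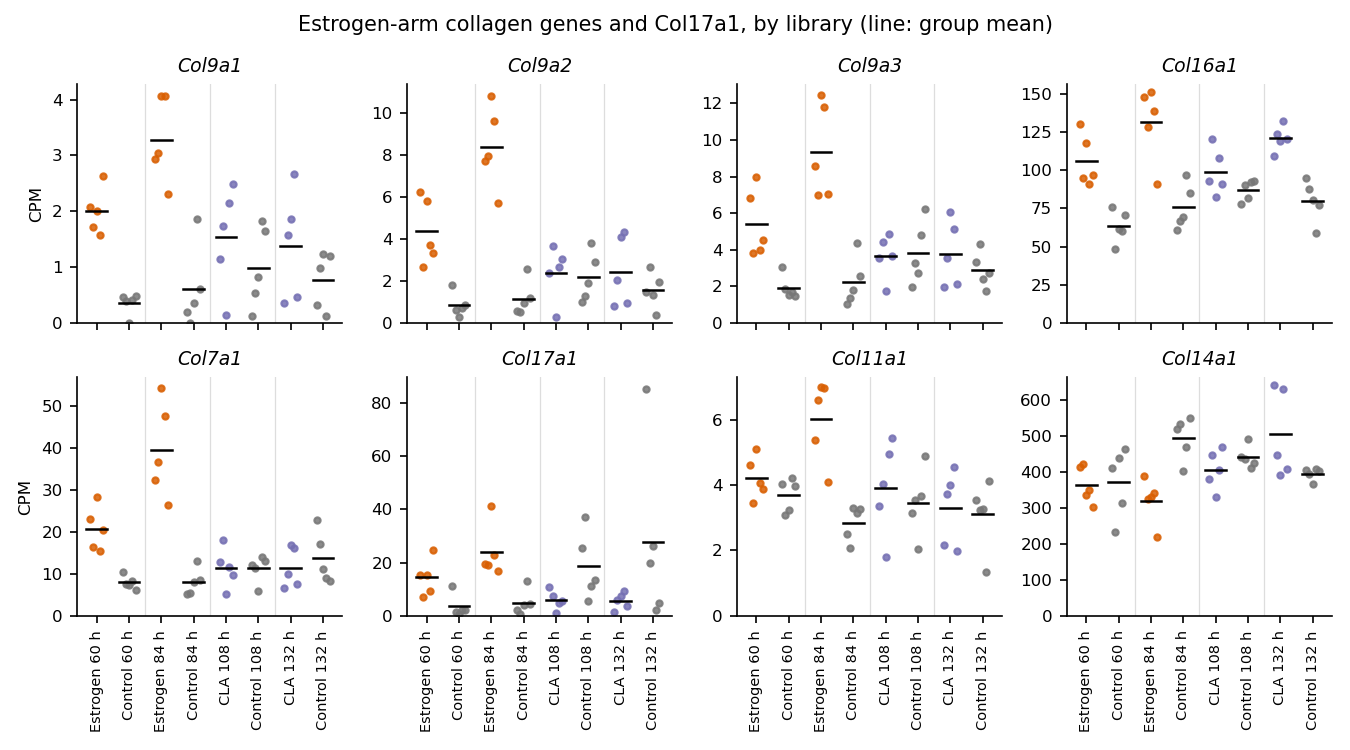
CPM of 8 collagen genes, 1 point per library and a line at the mean of each group of 5, on linear axes that start at 0, with estrogen in orange, CLA in purple and controls in grey. Col9a1, Col9a2, Col9a3 and Col7a1 are highest with estrogen at 84 h, Col14a1 is lowest there, and Col17a1 has its highest point (85.5 CPM) in 1 control at 132 h.

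Transmembrane collagens span the cell membrane and bind cells to the matrix. With CLA, 2 of the 4 fell at 108 h and 3 at 132 h. Col13a1 (chr10:61838236-61979108, minus strand), found at cell contacts with the matrix, had 2.53, 3.23, 1.93, 2.99 and 3.22 CPM with CLA at 108 h, against 3.68, 6.74, 5.17, 4.51 and 5.5 CPM in controls. The later libraries of Col13a1, at 132 h, had 2.52, 3.26, 2.81, 4.11 and 2.93 CPM with CLA and 5.68, 4.63, 4.84, 4.79 and 4.1 CPM in controls. The CLA libraries were the lower ones, without overlap at 108 h and with overlap at 132 h. Col23a1 (chr11:51289920-51583918, plus strand) had 7.37, 9.13, 6.1, 6.83 and 8.14 CPM with CLA and 8.98, 10.2, 8.85, 9.08 and 11.4 CPM in controls at 108 h. At 132 h Col23a1 had 6.44, 8.32, 7.8, 9.17 and 7.41 CPM with CLA and 12.8, 11.4, 12.5, 11.4 and 11 CPM in controls. Here the groups overlapped at 108 h and not at 132 h. Col13a1 fell, at −0.88 ± 0.18 (SE, edgeR adjusted p = 0.000598) and −0.64 ± 0.18 (SE, edgeR adjusted p = 0.00448) as log2 fold changes, with −0.52 (adjusted p = 0.102) at 132 h without the 9 libraries. Col23a1 fell, at −0.37 ± 0.12 (SE, edgeR adjusted p = 0.0162) and −0.62 ± 0.11 (SE, edgeR adjusted p = 8.19e-05), and its 108 h call was lost without CLA replicate 3 (adjusted p = 0.0523).

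Col17a1 (chr19:47646344-47692094, minus strand) encodes the collagen of hemidesmosomes, the junctions of basal epithelial cells in skin and ducts. It had 1.28, 5.95, 7.38, 9.2 and 3.64 CPM with CLA at 132 h, against 85.5, 19.8, 26.1, 1.99 and 4.67 CPM in controls. The highest control was replicate 1, the library with the highest skin list mean, and the groups overlapped. The log2 fold change of −2.36 ± 0.84 (SE, edgeR adjusted p = 0.0234) turned to 0.68 (adjusted p = 0.593) without the 9 libraries high in skin genes, and was −1.30 (adjusted p = 0.154) without control replicate 1 and −2.12 (adjusted p = 0.0525) without CLA replicate 1. With the animal-number run as a term it was −2.07 (adjusted p = 0.123). Over all 40 libraries Col17a1 was at 16.9 to 85.5 CPM in the 9 libraries and 0.609 to 22.9 CPM in the other 31. With estrogen Col17a1 averaged 14.4 ± 6.9 CPM, against 3.46 ± 4.29 CPM in controls at 60 h, and 23.9 ± 9.95 CPM, against 4.83 ± 4.8 CPM at 84 h. Neither difference was called (2.04 ± 0.70, adjusted p = 0.0874, and 2.28 ± 0.84, adjusted p = 0.121). Col7a1 was at 11.1 to 54.4 CPM in the 9 libraries and 5.06 to 47.6 CPM in the other 31.

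**Figure D4:**
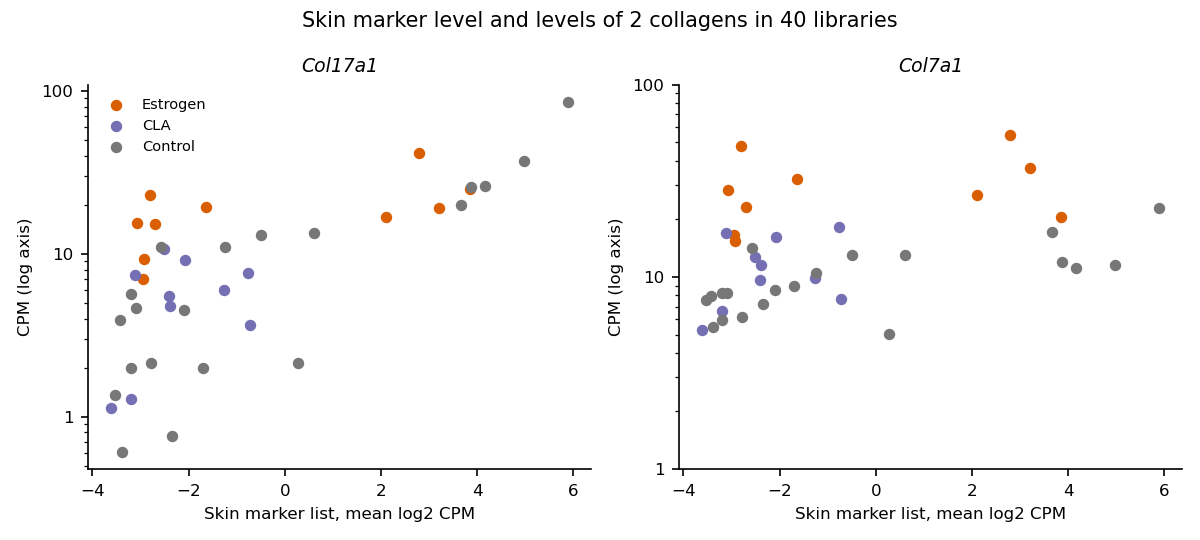
Col17a1 (left) and Col7a1 (right) in CPM on a log axis against the mean log2 CPM of the skin and hair list, 1 point for each of 40 libraries, with estrogen in orange, CLA in purple and controls in grey. The 9 libraries to the right of 2 hold no CLA library. The highest Col17a1 value, 85.5 CPM, is a control there. In Col7a1 the 4 estrogen libraries of the 9 lie at 20.4 to 54.4 CPM, and 1 of the 5 controls there, at 22.9 CPM, is above the lowest of them.

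Col25a1 (chr3:130131501-130599877, plus strand), a transmembrane collagen of muscle and nerve, had 0.504, 1.21, 1.43, 0.592 and 0.679 CPM with estrogen at 84 h and 0.357, 0.281, 0.240, 0.257 and 0.531 CPM in controls. The ranges overlapped by 1 library, and the log2 fold change was 1.36 ± 0.35 (SE, edgeR adjusted p = 0.0288), or 0.69 (adjusted p = 0.437) without the 9 libraries. That call was also lost without estrogen replicate 2 or 3 or control replicate 1, 2, 3 or 4 (highest adjusted p 0.0913). On log2(RPKM + 0.1) it was 0.19 (adjusted p = 0.356). The ratio of its CPM to its RPKM corresponds to a length of 44.8 kilobases, against 12.9 kilobases of annotated exons, so its deposited RPKM gives no rank among the 44 genes.

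Of the 2 genes outside these classes, Col28a1 (chr6:7997808-8192617, minus strand), a collagen with von Willebrand factor A domains known from peripheral nerve, was among the clearest falls. It had 13.3, 14.6, 13.3, 14.7 and 16.1 CPM with CLA at 108 h, against 21.8, 21.6, 26.3, 24 and 26.9 CPM in controls. At 132 h it had 15.1, 16.1, 14.5, 12.3 and 12.1 CPM with CLA and 23.8, 28, 22, 28 and 20.3 CPM in controls. With estrogen at 60 h it had 21.3, 19.9, 21.5, 23.2 and 18.1 CPM, against 30.4, 30.9, 33.9, 35.1 and 29.3 CPM in controls. In these comparisons no library overlapped, and the log2 fold changes were −0.74 ± 0.08 (SE, edgeR adjusted p = 5.94e-07), −0.83 ± 0.11 (SE, edgeR adjusted p = 5.52e-06) and −0.62 ± 0.08 (SE, edgeR adjusted p = 0.000689). Of the 5 estrogen libraries at 60 h, 4 lay within the range of the 84 h, 108 h and 132 h controls, 19.2 to 28 CPM, and 1 lay below it at 18.1 CPM. Of 6 Schwann cell markers none was called with CLA, where 47.9% of all genes were at 108 h and 56.0% at 132 h. With estrogen 1 of them fell at 60 h (2.42% of all genes) and 2 rose at 84 h (3.45%). Col26a1 (chr5:136741759-136883209, minus strand) was called in none of the 4 comparisons, with 1.01 to 2.23 CPM in treated and 0.852 to 2.76 CPM in control libraries.

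The controls themselves differed over the 4 times for 9 of the 41 collagens (adjusted p at or under 0.05), where 13.4% of all genes did. Time was not balanced over the runs of animal numbers. Of the controls at 60 h, 4 belong to run 2, and those at 108 h to run 1 (2 mice) and run 3 (3 mice). No term for the run was fitted here, so a change with time cannot be told apart from a difference between runs. The 9 collagens were Col3a1, Col5a1, Col5a2, the type VI genes Col6a1, Col6a2 and Col6a3, Col17a1, Col25a1 and Col28a1. Controls among the libraries high in skin genes, 2 at 108 h and 3 at 132 h, had Col17a1 at 19.8 to 85.5 CPM. The other controls at these times had 1.99 to 13.4 CPM. Col25a1 averaged 0.53 CPM over all libraries, and its control replicate 2 at 108 h had 1.22 CPM, with the others of that group at 0.359 to 0.596 CPM. Against controls at 60 h, Col6a3 stood at log2 differences of 0.01 at 84 h, −0.30 at 108 h and −0.40 at 132 h, and Col28a1 at −0.48, −0.41 and −0.38. Controls at 132 h were the lowest of the 4 times for type VI: Col6a2 averaged 1132 ± 72.5 CPM with CLA at 132 h, against 892 ± 58.1 CPM in controls at 60 h, 906 ± 51.8 CPM at 84 h, 749 ± 116 CPM at 108 h and 711 ± 53.3 CPM at 132 h.

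The 2 arms were set against each other by the difference of their effects, within the table each pair of times shares. At 108 h with CLA minus 60 h with estrogen, 4 collagens were higher and 9 lower (32.1% of all genes called, 17.2% higher and 14.9% lower). At 132 h with CLA minus 84 h with estrogen, 12 were higher and 10 lower (38.0%, 19.1% and 18.9%). At the later pair the difference was 0.97 ± 0.19 (SE, edgeR adjusted p = 0.000434) for Col3a1, 1.10 ± 0.17 (SE, edgeR adjusted p = 5.55e-05) for Col27a1, 0.98 ± 0.19 (SE, edgeR adjusted p = 0.000553) for Col18a1 and 0.63 ± 0.13 (SE, edgeR adjusted p = 0.000809) for Col6a2. It was −2.57 ± 0.48 (SE, edgeR adjusted p = 0.000454) for Col7a1, −2.23 ± 0.73 (SE, edgeR adjusted p = 0.0211) for Col9a2 and −0.70 ± 0.16 (SE, edgeR adjusted p = 0.00195) for Col28a1, while for Col16a1 it was not called (−0.21 ± 0.20, adjusted p = 0.444). At the earlier pair Col4a3 (−1.60 ± 0.43, adjusted p = 0.00818) and Col4a4 (−1.21 ± 0.28, adjusted p = 0.00267) were among the lower ones. The difference between the estrogen effects at 84 h and 60 h was called for no collagen by edgeR (0.00560% of all genes called), with 4 collagens and 1160 genes at an unadjusted p under 0.05. Without the 9 libraries 11 collagens were called at the later pair, 8 higher and 3 lower, and 3453 of all genes, against 6536 in the main fit. Among the genes named for that pair, Col9a2 (−1.87, adjusted p = 0.254) and Col28a1 (−0.61, adjusted p = 0.051) were then not called, while Col3a1, Col27a1, Col18a1, Col6a2 and Col7a1 were. Col9a2 also missed the threshold with the skin list as a covariate (−2.06, adjusted p = 0.0899) and Col28a1 on log2(RPKM + 0.1) (−0.50, adjusted p = 0.0703).

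**Figure D5:**
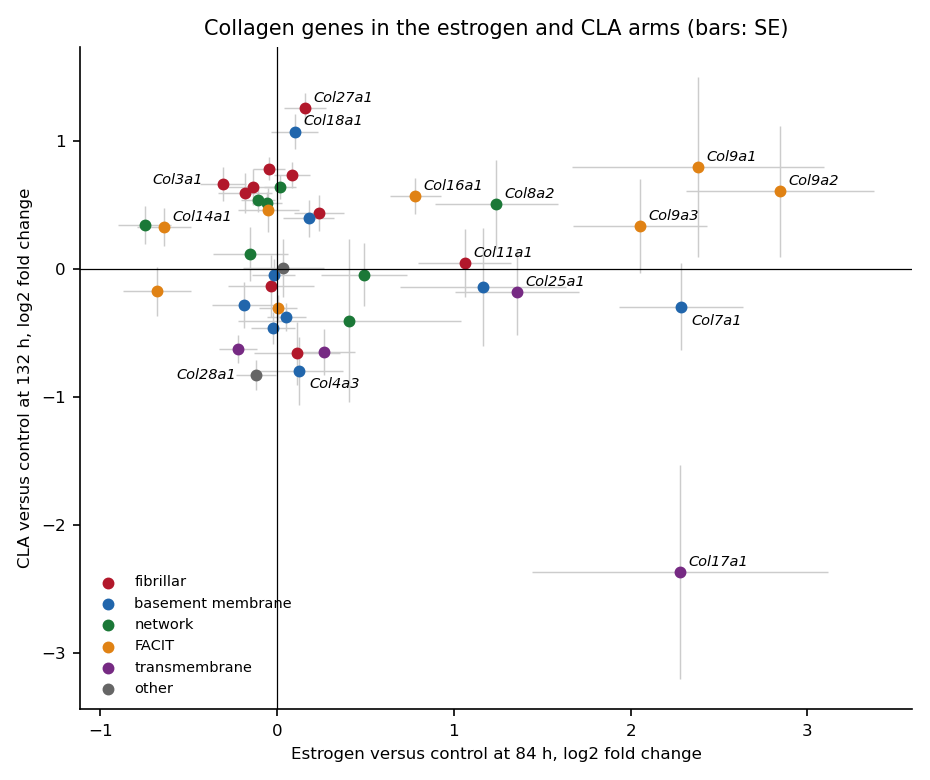
Log2 fold change with CLA at 132 h (vertical) against that with estrogen at 84 h (horizontal) for the 41 tested collagen genes, coloured by class, with bars of 1 SE. Col27a1, Col18a1 and Col3a1 lie high near the vertical line, the type IX genes and Col7a1 lie to the right, and Col17a1 lies low on the right.

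The other genes of the collagen pathway were counted against all genes tested with CLA, where rises took 24.9% at 108 h and 27.0% at 132 h, and falls took 23.0% and 29.0%. Of 22 folding and modifying enzymes, 16 rose and 1 fell at each time, with a median log2 fold change of 0.45 and 0.59. Among them P4hb, a subunit of the enzyme that hydroxylates proline in collagen, rose by 0.72 at 108 h and 0.77 at 132 h, the prolyl 3-hydroxylase P3h1 by 0.65 and 0.81, and its relative P3h3 by 0.44 and 0.82. Sec24d, part of the coat that carries procollagen out of the endoplasmic reticulum, rose by 0.72 and 0.88, and Colgalt1, which adds galactose to hydroxylysine, by 0.56 and 0.73. With estrogen 1 of the 22 rose at 60 h and 2 at 84 h, where 4.07% and 3.45% of all genes rose. Of 13 genes of procollagen processing and cross-linking, there were 7 rises and 3 falls at 108 h, and 8 rises and no fall at 132 h. The procollagen protease gene Adamts14 rose by 0.97 and 1.09 and Pcolce, an enhancer of procollagen cutting, by 0.64 and 0.96. The cross-linking enzymes Loxl1 (0.45 and 0.78), Loxl2 (0.26 and 0.79) and Loxl3 (0.37 and 0.78) rose as well. With estrogen none of these 13 rose and 1 fell at each time, where 2.42% and 1.97% of all genes fell.

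Of the genes that break collagen down, 4 of 10 rose with CLA at 108 h and 7 of 9 at 132 h, with 1 lower at each time, where 24.9% and 27.0% of all genes rose. The collagenase Mmp13 rose by 2.45 and 3.24 on the log2 scale, the membrane collagenase Mmp14 by 0.40 and 0.93, and Ctsk, the collagen-cutting cathepsin, by 0.33 and 0.97. Pepd, which splits proline dipeptides, rose by 0.30 and 0.28, and Fap, a fibroblast protease, had 0.09 at 108 h, not called, and rose by 0.63 at 132 h. Mmp15 was the gene that fell (−0.88 and −0.96). Of 10 collagen receptors tested, there were 2 rises and 2 falls at 108 h, and 4 rises and 2 falls at 132 h, beside the shares of all genes given above. Mrc2, which takes up collagen fragments, rose by 0.72 and 1.02 and the leukocyte receptor Lair1 by 2.14 and 2.43. The integrin chain gene Itga1 (−0.86 and −1.19) and Adgrg1 (−0.44 and −0.86), a receptor of type III collagen, fell. With estrogen 1 receptor fell at 60 h, while 84 h gave 1 rise and 2 falls.

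Of 18 partners of type IV collagen in the basement membrane, 9 fell with CLA at 108 h without a rise, while 132 h gave 9 falls and 1 rise, where 23.0% and 29.0% of all genes fell, with medians of −0.31 and −0.33. Pxdn, the peroxidase that cross-links type IV collagen, changed by −0.97 and −1.04, the laminin chains Lama5 by −0.61 and −0.92, Lama4 by −0.35 and −0.38 and Lamb2 by −0.37 and −0.41, and the proteoglycan gene Agrn by −0.43 and −0.48, all called. Of 16 proteoglycans and glycoproteins that bind fibrils, there were 5 rises and 3 falls at 108 h, and 12 rises and 2 falls at 132 h. Lumican (Lum) rose by 0.53 and 1.42 and fibromodulin (Fmod) by 1.25 and 1.84, while podocan (Podn) fell, with −1.62 and −1.70, as did fibulin 1 (Fbln1), with −0.73 and −0.55. Dermatopontin (Dpt) fell at 108 h (−0.51) and fibronectin (Fn1) rose at 132 h (0.75).

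Of 12 transforming growth factor beta ligands and matrix targets, CLA at 108 h gave 3 rises and 2 falls, and at 132 h 5 rises and 2 falls, where 24.9% and 27.0% of all genes were called higher, and 23.0% and 29.0% lower. Tgfb1 rose by 1.0 and 1.27, and periostin (Postn) by 0.68 and 1.24. Ltbp2 fell (−0.93 and −1.32), and Smad7, an inhibitor of the pathway, had −0.26 at 108 h, not called, and fell at 132 h (−0.68).

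Of all genes tested with CLA, 24.9% at 108 h and 27.0% at 132 h rose, and 23.0% and 29.0% fell. Of 14 fibroblast markers that are not collagens, CLA at 108 h gave 3 rises and 3 falls, and at 132 h 9 rises and 1 fall. Their summed levels at 132 h were 5952 to 6979 CPM with CLA and 3326 to 3835 CPM in controls. This list includes matrix genes, and Lum, Dpt, Fbln1, Postn and Fap of it were also counted in the lists above. Of 10 markers of mature fat cells, 9 fell at each time, of 11 macrophage markers 10 and 11 rose, of 10 endothelial markers 9 and 8 fell, and of 8 mural cell markers 5 and 6 fell. Luminal epithelium markers gave 0 and 1 rises of 8 with CLA, and 7 and 5 with estrogen, where 4.07% and 3.45% of all genes rose. Basal epithelium markers gave 3 and 4 falls of 8 with CLA, beside 17 of 20 and 21 of 23 skin markers that fell, and 2 rises of 8 at each time with estrogen. The summed level of the basal list was at most 119 CPM at 108 h and 117 CPM at 132 h with CLA, against up to 684 and 1019 CPM in controls. All 5 skeletal muscle markers fell with CLA at 108 h (median log2 fold change −3.81), and none was called at 132 h (median −4.09). The part of these cell types in the collagen results was not tested.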

How the data were processed

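RNA of 40 mammary gland samples was sequenced as stranded poly(A) libraries, per the labels' protocols. The authors deposited raw counts per gene and RPKM values, each in one table for 60 and 108 h and one for 84 and 132 h. The submitters' processing notes name the genome build GRCm38, and no aligner or counter is named in the sources at hand. The collagen genes, the other gene lists and the tests were chosen with earlier results of these data known. Gene coordinates are from GENCODE M21 (GRCm38), where 28 of the 44 collagens overlap another gene, 18 of them one on the opposite strand, and whether counting used strand is not given.

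Counts were tested with edgeR 4.0.16 in R 4.3.3 (quasi-likelihood F test, robust, TMM scaling, filterByExpr at a minimum count of 10 and a total of 15), with Benjamini-Hochberg adjustment over all genes tested and a threshold of 0.05. The 4 groups of a table shared one estimate of the spread, and contrasts between times used all 40 libraries. Ratios of RPKM were tested by exact 2-sided permutation. Alternatives used limma 3.58.1 on log2(RPKM + 0.1 or 1), DESeq2 1.42.0, other scalings and filters, each library left out, and the 9 libraries high in skin genes left out. Library size alone and RPKM centred on all genes were chosen after seeing the data. The fits were also run on simulated data with few changed genes, as many higher as lower. That run could not test the scaling in the CLA comparisons, where 47.9% and 56.0% of all genes were called. Each library carries one animal number, and replicates are numbered by accession order, which pairs no samples. Values in every library are given for the 3 genes of each class with the highest mean RPKM and for genes called with an absolute log2 fold change of at least 1, other called collagens have their fold change, and the 4 genes with the smallest p are named per list and CLA comparison. One gene that this rule names is not reported here.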

Additional observations from a re-analysis of the deposited data

Results flagged for a closer look

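In 28 collagens and 8 groups of 5, 9 of the 224 sets of values held 1 library far from the other 4 by Dixon's test, where chance gives about 1 in 20. Col17a1 held 3 of them, at 41.3 CPM in estrogen replicate 3 at 84 h against 16.9 to 22.9 CPM in the others, 11.1 CPM in control replicate 1 at 60 h against 0.763 to 2.13 CPM, and 85.5 CPM in control replicate 1 at 132 h against 1.99 to 26.1 CPM. Col18a1 was low at 136.1 CPM in estrogen replicate 3 at 60 h, with the others at 161.2 to 169.9 CPM, and high at 174.9 CPM in control replicate 1 at 132 h, with the others at 117.1 to 131.3 CPM. Col27a1 had 58.3 CPM in control replicate 2 at 60 h, with the others at 50.4 to 52.6 CPM. Among low genes, Col9a1 was at 0 CPM in control replicate 3 at 60 h (others 0.399 to 0.484 CPM), Col9a3 at 3.04 CPM in control replicate 1 at 60 h (others 1.45 to 1.86 CPM) and Col25a1 at 1.22 CPM in control replicate 2 at 108 h (others 0.359 to 0.596 CPM).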

How the results depend on the processing

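Of 59 called results for single collagens, 29 kept their call under every alternative run and 41 under every fit that left out 1 library. The alternative that ended most calls was limma on log2(RPKM + 0.1), with 20, then the fit without the 9 libraries high in skin genes, with 19, which includes the 1 reversal (Col17a1 with CLA at 132 h, 0.68), and upper-quartile scaling ended 3. With estrogen at 60 h the count of 8 collagens was 5 with no filter, 5 with limma at either pseudocount and 5 with centred RPKM, and 4 to 7 with 1 library left out, 4 without estrogen replicate 1 or control replicate 3 or 4. The count of all genes, 1119, was then 593 with no filter, 378 and 277 with limma at 0.1 and 1, and 414 with centred RPKM. It was 316, 494 and 436 without estrogen replicate 1, control replicate 3 and control replicate 4. At 84 h the count of 10 was 3 without the 9 libraries, 6 with limma on log2(RPKM + 0.1), and 6 to 10 with 1 library left out, 6 without estrogen replicate 3 or control replicate 1 or 2. For all genes the 931 calls became 303 without the 9 libraries and 584 with limma on log2(RPKM + 0.1). They became 515, 443 and 618 without estrogen replicate 3, control replicate 1 and control replicate 2. With CLA the counts were 14 to 18 at 108 h and 19 to 23 at 132 h with 1 library left out. Those of all genes were then 7637 to 8367 and 8984 to 9557. For CLA at 132 h minus estrogen at 84 h, 22 became 11 without the 9 libraries and 14 with the skin list as a covariate. The 6536 calls over all genes became 3453 and 4805. The cause was not tested. No paired analysis was possible because replicate numbers follow accession order. A term for the animal-number run, fitted in the 2 groups alone, ended 8 CLA calls, and 5 of them (Col5a3, Col12a1, Col17a1, Col4a1 and Col4a2) were also lost in these groups without the term. Genes under about 1 CPM, such as Col9a1, Col4a3 and Col25a1, rest on few counts per library.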

Other observations

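Col6a5, a type VI chain called in none of the 4 comparisons, was at 23.0 CPM in estrogen replicate 3 at 60 h, with the other 4 libraries of that group at 1.70 to 2.97 CPM. This gene was chosen after its values were seen.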
